A study of Mus musculus with 24 samples.

Results

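The change in cochlear gene expression across the onset of hearing was described in wild type mice, by setting 3 arrays of cochlea at postnatal day 13 (P13) against 3 at postnatal day 7 (P7). These 6 arrays were chosen by age and genotype from the 24 of the series, which covers P3, P7, P13 and P60 in wild type and in α9-/- mice with 3 arrays per age and genotype. The mice were of mixed 129S6 and CBA/CaJ background, backcrossed for at least 7 generations to CBA/CaJ, and the knockout lacks the α9 subunit of the nicotinic acetylcholine receptor in all cells. Neither age of wild type carried a treatment or another allele. Total RNA of whole cochleae was pooled from 3 to 5 mice per array according to the design description, and the methods give larger pools at P7 than at P13, so pool size ran with age. The pool is the replicate, an array gives no animal-to-animal spread, and 3 arrays per age limit the precision. A pool holds sensory epithelium, lateral wall, neurons, the bony capsule and its marrow together. In such bulk RNA, more or fewer cells of a type and more or less RNA per cell cannot be told apart.

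The mouse cochlea is deaf at P7 and begins to respond to sound a few days before P13. Between these ages the tectorial membrane, a sheet of extracellular matrix over the hair cells, is completed and its makers regress. The lateral wall, made of the stria vascularis and of fibrocytes of the spiral ligament, comes to generate the high potassium and the potential of the endolymph. Over the same days efferent fibers move from inner to outer hair cells, spiral ganglion neurons acquire mature excitability, and the cartilage model of the otic capsule is replaced by bone whose cavities fill with marrow.

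Expression is given as log2 signal of 1 probe set per gene, the one of highest mean over the 24 arrays among those naming a single gene, after quantile normalization over all arrays. Levels of different probe sets are not compared. Of 20 measured markers of hair cells, stria, tectorial membrane, fibrocytes, spiral ganglion and Schwann cells, 18 were above the array median in all 6 arrays. The exceptions, Pou4f3 (a transcription factor of hair cells) and Slc26a5 (prestin, the motor protein of outer hair cells), were below it in all 6. The deposited array medians were close within an age and differed between ages, so it is not settled whether the authors normalized all ages together, and the size of a common shift between P7 and P13 is not fixed by these data.

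The RNA of the P13 arrays was not alike. The 3′ Gapdh control exceeded the 5′ control by 1.27, 0.24 and 0.17 on the log2 scale in P7 replicates 1 to 3, and by 6.30, 6.47 and 2.43 in P13 replicates 1 to 3. The highest P7 value lay below the lowest P13 value, with an exact two-sided permutation p of 0.10, the smallest that 3 against 3 arrays allow. The Actb controls gave 1.22, 0.62 and 0.74 at P7 and 4.78, 3.72 and 1.38 at P13, so replicate 3 was near the P7 arrays there. The Tfrc controls gave 3.45, 2.71 and 3.22 at P7 and 4.05, 4.64 and 2.5 at P13 (exact two-sided permutation p = 0.50), with replicate 3 under every P7 array. P13 replicates 1 and 2 thus had low 5′ signal in the Gapdh and Actb controls, and replicate 3 was intermediate in Gapdh. Age and this sign of RNA quality cannot be told apart in the wild type alone. The leading genes and many lists are therefore set beside P13 replicate 3 alone or the α9-/- arrays. The Gapdh values of the 3 α9-/- arrays at P13 were 0.34, -0.15 and -0.15. Other lists are given by their wild type counts, without either comparison. For genes with large values, the difference between an array of low 5′ signal and its 2 group mates is given too. Such arrays were P3 wild type replicate 1, P3 α9-/- replicate 2 and P60 wild type replicate 1, none of which enters the comparison.

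Of 18194 genes, 2676 rose from P7 to P13 in wild type, or 14.7% of all genes, and 1541 fell, or 8.47% (limma, Benjamini-Hochberg adjusted p under 0.05). The 3 P13 arrays lay wholly above the 3 P7 arrays for 25.5% of all genes and wholly below for 14.8%. The median difference was 1.04 among genes that rose and -1.06 among genes that fell, and 0.10 over all genes. These sizes belong to the chosen probe set, at which the genes were called. For the 1552 rises with another probe set, the median was 1.01 at the chosen one and 0.2 at the others. For the 777 such falls it was -1.01 and -0.44, so other probe sets of the same genes gave smaller differences. Changes above 1.5 on the log2 scale made up 600 of the rises and 338 of the falls. Without the added normalization the median of all genes moved to 0.35, with 5150 rises and 869 falls, so that rises made up 85.6% of calls in place of 63.5%. With arrays centred on their medians the counts were 3160 and 1270, with 71.3% rises. The counts also rested on single arrays: 1399 rose and 618 fell without P7 replicate 3, 1450 and 659 without P13 replicate 2, and 801 fell without P7 replicate 1.

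P13 replicate 3 alone lay above all P7 arrays for 2674 of the 2676 genes that rose, and below all of them for 1525 of the 1541 that fell. Since replicate 3 took part in those calls, genes were also called from P13 replicates 1 and 2 against P7. Of the 2685 that rose in this comparison, 94.0% had replicate 3 above every P7 array, against 36.4% of all genes. Of the 1610 that fell, 87.6% had replicate 3 below every P7 array, against 30.7% of all genes. The same 3 P7 arrays entered both these calls and the check, so the check is not independent of the calls. The sizes were smaller in replicate 3, with medians of 0.84 against 1.12 for the rises and -0.77 against -1.19 for the falls. Replicates 1 and 2 chose these genes and also had the low 5′ Gapdh signal, so the choice and RNA quality cannot be told apart in these sizes. A comparison with replicate 3 as the only P13 array, with the spread pooled over 22 arrays, called 482 rises and 85 falls.

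Genes of blood cells made in marrow led the rises. Fcrla, an Fc receptor-like protein inside B cells (gene ID 98752, chromosome 1 of GRCm38.p6, 170917594 to 170932216), had log2 signals of 4.99, 5.26 and 5.42 at P7, and of 10.54 and 10.52 in P13 replicates 1 and 3 and 10 in P13 replicate 2. It rose 35.05-fold, by 5.13 ± 0.21 (SE) on the log2 scale with an adjusted p of 3.06e-05. The ages were far apart in every array, replicate 3 among the highest. H2-Ob, a chain of the class II chaperone of B cells, rose from 4.01, 3.81 and 4.0 to 8.71, 8.58 and 8.54. Il7r, the interleukin receptor of early lymphoid cells, rose from 5.96, 6.19 and 6.20 to 10.08, 10.13 and 10.31. For both genes the 3 arrays of an age lay close together and the ages were far apart. The remaining genes of the 10 largest rises were Epb42, a protein of the red cell membrane (4.45 ± 0.46), Chil3, a secreted chitinase-like protein of myeloid cells (4.41 ± 0.24), and Slco4c1, an organic anion transporter (4.10 ± 0.37). They went on with Pou2af1, a transcription coactivator of B cells (4.09 ± 0.22), Ppbp, a platelet chemokine (4.07 ± 0.21), Spib, an Ets factor of lymphoid cells (4.06 ± 0.26), and Glra3, a glycine receptor subunit (3.83 ± 0.31). In replicate 3 alone these 10 genes differed from P7 by 3.41 to 5.29, and all 10 also rose in α9-/-, by 1.88 to 4.41. Another probe set of Epb42 differed by 0.12, of Slco4c1 by 0.51 and of Glra3 by 0.41, while the other probe sets of Fcrla gave 2.64 and 3.72 and that of Il7r 2.48. The probe sets of these 5 genes thus disagreed in size. The low 5′ arrays of the other ages differed from their group mates by 0.06 to 2.31 over the 10 genes, the highest value being that of Chil3.

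The 10 largest falls held 2 genes of cartilage, 1 of the tectorial membrane and 7 of other kinds. Col10a1, the collagen of hypertrophic cartilage, fell from 8.18, 12.82 and 12.27 to 5.49, 5.87 and 7.23. P7 replicate 1 lay far under the other P7 arrays, and the difference of -4.89 had an SE of 1.09. Matn1, a cartilage matrix protein, fell from 7.29, 9.97 and 9.10 to 5.07, 4.53 and 3.89, by 4.29 ± 0.61 (SE). Tectb, which encodes β-tectorin, fell by 3.88 ± 0.18 and is described with the tectorial membrane. The other genes were Tgfb1 (a growth factor, -4.15), Dapk3 (a protein kinase, -3.85), Mdfi (an inhibitor of myogenic factors, -3.48), Ldb1 (a LIM-domain binding protein, -3.44), Cenpb (a centromere protein, -3.23), Podxl2 (a sialomucin, -3.18) and Prrc2a (-3.16). The rule of choice required calls without overlap between the ages, so all 7 met this by design. Their adjusted p in limma ran from 0.000254 to 0.00889.

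These 7 differed from Tectb in the size of the α9-/- difference, and most of them also in the arrays of low Gapdh 5′ signal. From P7 to P13 in α9-/- they differed by -1.53 (Mdfi) to -0.43 (Ldb1), and Mdfi alone passed there, while Tectb fell by 3.81. The low 5′ array of P3 wild type differed from its group mates by -3.83 for Dapk3, -3.37 for Ldb1, -2.83 for Cenpb and -2.69 for Prrc2a. That of P60 wild type differed by -3.6 for Dapk3, -3.39 for Ldb1, -3.77 for Cenpb and -1.95 for Prrc2a. The 2 values were -1.46 and -3.81 for Tgfb1, -1.36 and -1.24 for Mdfi, and -0.09 and -4.69 for Podxl2. For Tectb the differences were -0.49 and 1.33. A second probe set of Dapk3 differed by 0.18 between P7 and P13, one of Tgfb1 by 0.19, one of Cenpb by -0.11 and one of Mdfi by -0.18. The part of RNA quality in the falls of these 7 genes was not tested. The same measure over all genes that fell had a median of -0.03 in P3 wild type, -0.29 in P3 α9-/- and -0.94 in P60 wild type, against 0.21, 0.21 and 0.22 over all genes. Over the genes that rose it was 0.33, 0.39 and 0.66.

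**Figure D1:**
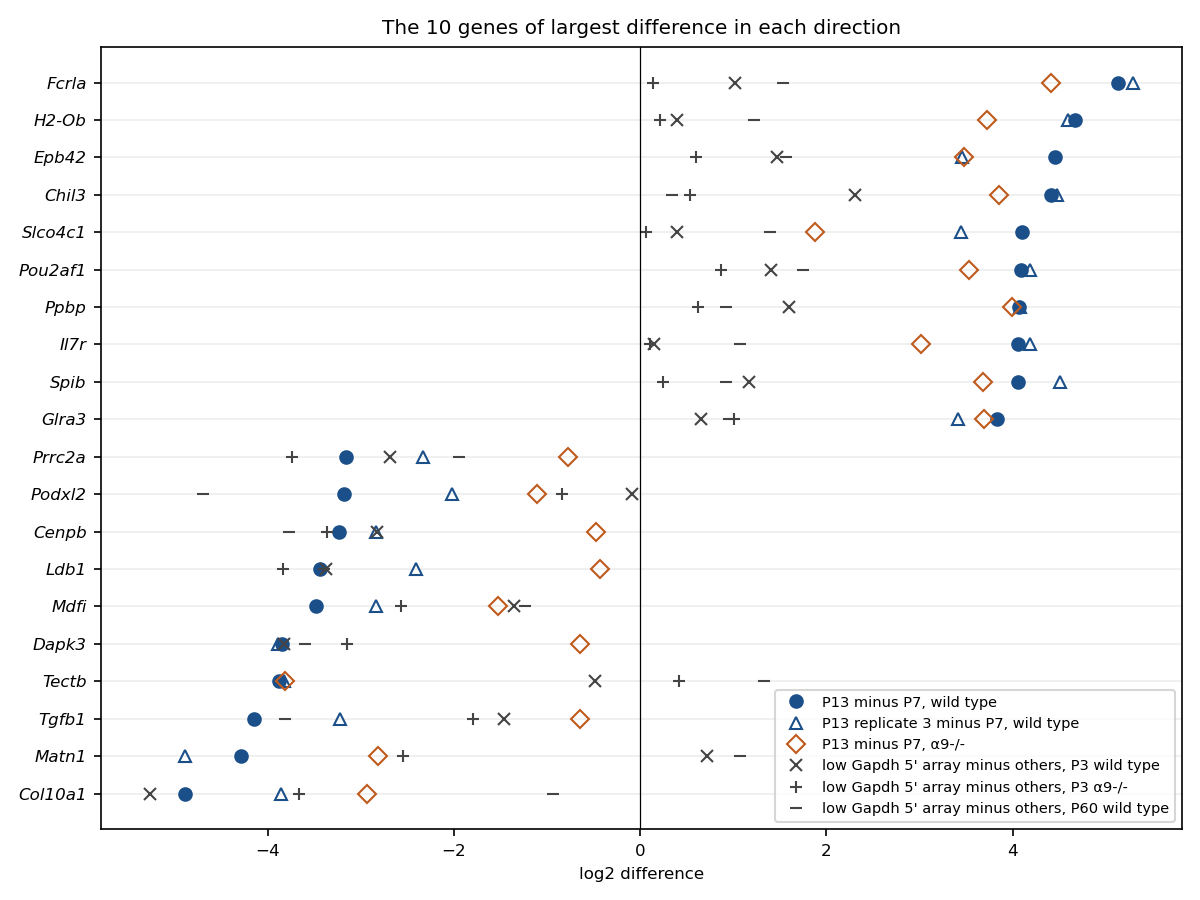
Log2 differences (x axis) of the 10 genes with the largest rise and the 10 with the largest fall in wild type (y axis). Filled circles are the 3 P13 arrays minus the 3 P7 arrays, triangles P13 replicate 3 alone, diamonds the same ages in α9-/-, and grey signs an array of low Gapdh 5′ signal minus its 2 group mates at other ages. Tectb shows -3.88, -3.82 and -3.81 in the first 3 measures, whereas Dapk3 shows -3.85 and -3.89 in wild type, -0.65 in α9-/- and -3.83 to -3.15 in the low 5′ arrays.

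Lymphoid, myeloid and erythroid genes rose as groups. Of 17 measured genes of B cell development 15 rose and none fell, with a median difference of 2.38 (2.53 in replicate 3, 2.32 in α9-/-). Rag1, one of the recombinases that assemble antigen receptor genes, went from 6.84, 6.93 and 6.81 to 10.09, 10.22 and 10.50, a rise of 10.6-fold. At P3 its mean was 6.33 and at P60 6.17, so P13 stood above every other age. Ms4a1 (CD20) rose by 3.28 ± 0.35, Blnk, an adaptor of B cell receptor signals, by 3.20 ± 0.25, and Vpreb3, a partner of the pre-B cell receptor, by 3.04 ± 0.32. Ebf1 and Cd79a did not pass. Cd79a differed by 0.95 ± 0.43 over the 3 P13 arrays and by 2.03 in replicate 3 alone.

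Neutrophil genes followed the same course, with 17 of 20 rising and 1 falling and a median of 1.97 (2.23 in replicate 3, 1.72 in α9-/-). Mpo, the peroxidase of neutrophil granules, rose from 9.10, 9.07 and 10.02 to 12.76, 11.89 and 12.31, by 2.92 ± 0.31. Its mean was 6.36 at P3 and 11.46 at P60, so unlike Rag1 it stayed high in the adult. Fcnb, a ficolin, rose by 3.41 ± 0.26 and Ms4a3 by 3.25 ± 0.24. The gene that fell was Mmp9, a gelatinase that osteoclasts make as well, from 13.38, 13.17 and 13.38 to 12.04, 11.79 and 12.04.

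Of 18 erythroid genes 12 rose and none fell, with a median of 1.31 (0.94 in replicate 3, 1.25 in α9-/-). Epb42 went from 6.65, 5.40 and 5.62 to 10.99, 10.68 and 9.35, so replicate 3 was the lowest P13 array and still above P7. Ermap, a red cell adhesion protein, rose by 2.47 ± 0.17, Slc4a1, the anion exchanger of red cells, by 2.45 ± 0.26, and Rhd by 2.28 ± 0.22. The embryonic globin Hbb-bh1 did not pass, at 4.83 ± 0.38 and 5.12 ± 0.52 (SD, n = 3). Eosinophil and mast cell genes had 7 rises and 1 fall of 12, with a median of 0.91 (0.99 in replicate 3, 0.08 in α9-/-). Epx, the eosinophil peroxidase, rose from 5.00, 6.17 and 5.51 to 7.19, 9.17 and 9.08, while the α9-/- difference was 0.67 with an adjusted p of 0.424. Siglecf, an eosinophil lectin, rose by 2.16 ± 0.18, against 0.62 in α9-/-. Neither difference between the genotypes passed (adjusted p = 0.234 and 0.0552 for the interaction in limma).

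Other immune lists moved less. Of 9 class II genes 4 rose and none fell (median 0.69, 0.97 in replicate 3, 0.74 in α9-/-), among them H2-Aa, which presents antigen, by 1.26 ± 0.18. Of 27 interferon response genes 11 rose and none fell (median 0.68, 0.67 in replicate 3, 0.26 in α9-/-), led by Ifit1 with 2.56 ± 0.37, although with replicate 3 as the only P13 array 1 of the 27 passed. Macrophage and complement genes gave 6 rises and 2 falls of 20, and their median of 0.12 (0.06 in replicate 3, -0.05 in α9-/-) was near that of all genes. C1qa, a chain of the first complement component, fell by 2.53 ± 0.35, but differed by -0.27 in α9-/- and differed by -2.56 and -4.47 between the low 5′ arrays of P3 and P60 wild type and their group mates.

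**Figure D2:**
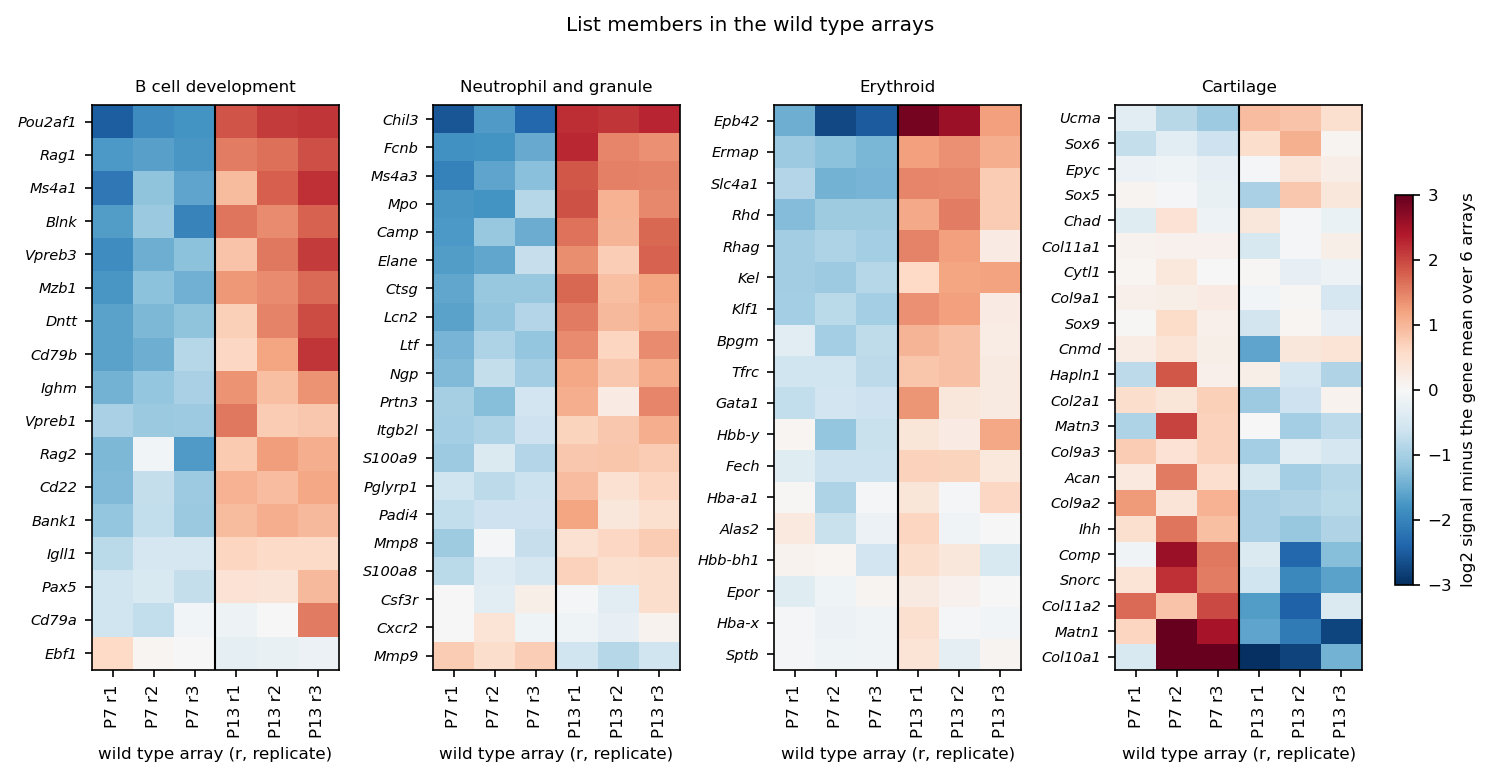
Each row is a measured member of the list named above the panel, each column a wild type array, and the color is the log2 signal minus the gene's mean over the 6 arrays. The 3 P13 arrays are red for 15 of 17 B cell genes, 17 of 20 neutrophil genes and 12 of 18 erythroid genes that rose, while 10 of 22 cartilage genes fell and Matn1 and Col10a1 in P7 replicate 1 were paler than in the other P7 arrays.

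Genes of cell division rose with the marrow genes. Of 61 measured genes of the cell cycle and of DNA replication 52 rose and 1 fell, with a median of 1.28 (1.21 in replicate 3, 0.70 in α9-/-). Replicate 3 lay above all P7 arrays for 59 of the 61. Mki67, the proliferation antigen Ki-67 (chromosome 7, 135689784 to 135716450), went from 10.96, 10.74 and 10.52 to 13.30, 13.25 and 12.75, a rise of 2.36 ± 0.21 with an adjusted p of 0.000426. Its mean was 10.62 at P3 and 11.33 at P60, so P13 was the highest of the ages. Ccne2, a cyclin of the start of DNA synthesis, rose by 2.17 ± 0.29, Rrm2, a subunit of ribonucleotide reductase, by 2.13 ± 0.18, and Nusap1, a spindle protein, by 1.99 ± 0.17. Top2a, which untangles DNA in dividing cells, rose by 1.41 ± 0.22. The exception was Ccnd1, cyclin D1 of the early cycle, which fell from 10.69, 10.39 and 10.74 to 8.58, 8.73 and 8.96. With all probe sets of a gene averaged 39 of the 61 rose, and with replicate 3 as the only P13 array 23. The erythroid, neutrophil and B cell signals rose in the same arrays, and which cells carried the division genes was not tested.

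Promoters of the genes that rose together were searched for letters of known factor sites, on both strands. The windows were the 250 bases before an annotated RefSeq start (build GRCm38.p6). For Mki67 the start used lies within the gene span given above, so its window overlaps that span. Windows were found for 44 of the 52 division genes, for 17 neutrophil genes, 10 erythroid genes and 11 B cell genes, and for 14453 genes measured here. CCAAT, the NF-Y box, stood in 72.7% of the division genes and in 39.4% of all genes, and at least 2 copies stood in 45.5% and 13.4%. The erythroid genes held CCAAT in 7 of 10, at least 2 copies in 2 of 10 and TTTGAA in 3 of 10, so the presence of these letters did not set the division genes apart from them. CCAAT stood in 27.3% of the B cell genes and in 35.3% of the neutrophil genes. The CHR letters TTTGAA stood in 11 of the 44 and in 14.1% of all, and TTTNNCGC, letters of E2F sites, in 10 of the 44 and in 6.94%. None of the erythroid, neutrophil and B cell genes held TTTNNCGC. Of the neutrophil genes 6, or 35.3%, held GAGGAAGT, letters bound by PU.1, against 2.8% of all genes. AGATAA, read by erythroid zinc finger factors, stood in 3 of 10 erythroid genes against 8.79% of all. It stood also in 4 of 17 neutrophil genes, or 23.5%, so it was not particular to the erythroid list. TCCCNNGGG, letters of EBF1 sites, stood in 1 of 11 B cell genes against 7.83% of all. These shares are descriptions of the windows. The windows of a division gene pair and of a granule enzyme pair are shown because they hold the letters in question, in capitals. These are the NF-Y boxes and CHR elements in the first pair and the PU.1 word in the second.
Mki67, chr7:135716380-135716629, minus strand: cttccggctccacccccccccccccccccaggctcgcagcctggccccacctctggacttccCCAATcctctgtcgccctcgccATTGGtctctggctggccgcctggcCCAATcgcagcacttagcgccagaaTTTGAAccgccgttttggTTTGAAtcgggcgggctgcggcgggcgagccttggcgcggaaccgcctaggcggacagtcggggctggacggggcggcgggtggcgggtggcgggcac
Ccnb2, chr9:70421555-70421804, minus strand: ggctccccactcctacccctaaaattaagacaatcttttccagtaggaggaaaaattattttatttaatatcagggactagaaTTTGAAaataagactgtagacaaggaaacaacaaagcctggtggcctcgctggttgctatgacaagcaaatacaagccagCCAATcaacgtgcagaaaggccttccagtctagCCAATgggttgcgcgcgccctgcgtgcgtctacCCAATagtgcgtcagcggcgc
Elane, chr10:79886062-79886311, plus strand: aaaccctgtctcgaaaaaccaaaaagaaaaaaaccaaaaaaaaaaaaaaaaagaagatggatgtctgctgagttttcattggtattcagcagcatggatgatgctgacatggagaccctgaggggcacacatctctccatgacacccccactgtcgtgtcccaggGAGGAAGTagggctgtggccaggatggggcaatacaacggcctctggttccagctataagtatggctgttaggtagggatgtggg
Prtn3, chr10:79879417-79879666, plus strand: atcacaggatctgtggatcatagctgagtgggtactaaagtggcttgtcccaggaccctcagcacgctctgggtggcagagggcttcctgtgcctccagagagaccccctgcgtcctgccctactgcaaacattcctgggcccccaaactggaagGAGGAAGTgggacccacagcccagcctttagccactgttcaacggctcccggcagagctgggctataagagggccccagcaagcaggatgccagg
Mki67 and Ccnb2 (cyclin B2, which rose by 1.74 ± 0.21) each held 3 CCAAT boxes in either orientation, with 2 and 1 CHR elements. Elane and Prtn3, serine proteases of neutrophil granules that rose by 2.61 ± 0.34 and 1.88 ± 0.33, lie next to each other on chromosome 10 and each held 1 PU.1 word.

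Cartilage and bone moved the other way. Of 22 cartilage genes 10 fell and 2 rose, with a median of -0.94 (-0.91 in replicate 3, -0.29 in α9-/-). Besides Col10a1 and Matn1, the falls held Snorc, a cartilage proteoglycan (-2.75 ± 0.48), and Col11a2 (-3.03 ± 0.49). Col2a1, the main collagen of cartilage, fell by 1.07 ± 0.29, but replicate 3 differed from P7 by -0.43. The rises were Ucma, a secreted cartilage protein (1.5 ± 0.24), and Sox6, a chondrocyte transcription factor (1.11 ± 0.26). P7 replicate 1 had the lowest Matn1 and Col10a1 of its group, so the size of the falls of Matn1 and Col10a1 rested on P7 replicates 2 and 3. For Col11a2 and Col2a1 the lowest P7 array was replicate 2. In α9-/- only 2 cartilage genes passed as lower.

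Of 17 osteoblast and osteocyte genes 7 fell and none rose (median -0.47, -0.45 in replicate 3, -0.31 in α9-/-). Alpl, the alkaline phosphatase of mineralizing bone, went from 12.03, 11.76 and 12.38 to 9.82, 10.02 and 11.16, so replicate 3 was the P13 array nearest to P7. Pth1r, the receptor for parathyroid hormone, fell by 2.18 ± 0.40. Of 18 osteoclast genes 9 fell and 1 rose (median -0.70, -0.77 in replicate 3, -0.91 in α9-/-). Ocstamp, needed for osteoclast fusion, fell from 9.33, 9.64 and 9.54 to 7.91, 7.19 and 7.26, and by 2.12 in α9-/-. The gene that rose was Tnfrsf11b, osteoprotegerin, a secreted inhibitor of osteoclast formation that is abundant in the spiral ligament, by 1.92 ± 0.20 and by 2.27 in α9-/-, although a second probe set gave -0.66. Of 29 other collagens 9 fell and 3 rose (median -0.39, -0.42 in replicate 3, -0.35 in α9-/-), the falls including Col16a1 (-1.33 ± 0.30) and Col6a3 (-1.24 ± 0.18).

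Tectorial membrane genes fell as well. Of 9 measured genes 6 fell and none rose, with a median of -1.07 (-0.71 in replicate 3, -0.32 in α9-/-). Of the 6, Col11a2, Col9a3 and Col2a1 are collagens of cartilage too, and only Tectb and Tecta passed in α9-/-. Tectb (gene ID 21684, chromosome 19, 55180726 to 55196313) stood at 12.28, 12.08 and 12.06 at P7 and at 8.06, 8.38 and 8.32 at P13, a 14.8-fold fall with an adjusted p of 4.26e-05. The arrays of each age lay close together. The mean was 12.62 at P3 and 7.66 at P60, so the larger part of the fall lay between P7 and P13. Tecta, which encodes α-tectorin, fell by 1.02 ± 0.17, from 8.36, 8.56 and 8.23 to 7.45, 7.23 and 7.40. Its P3 mean was 11.02, so the larger part of its decline had come before P7. Otoa, the otoancorin that holds the membrane to the limbus, fell by 1.07 ± 0.20, but differed by -0.06 in α9-/- and by -0.68 and -1.57 between the low 5′ arrays of P3 and P60 wild type and their group mates. Col11a2 and Col9a3, collagens of this membrane and of cartilage, fell by 3.03 and 1.25, with differences of -0.25 and -0.58 in α9-/-. The low 5′ arrays of P3 α9-/- and P60 wild type differed from their group mates by -1.72 and -2.68 for Col11a2. Ceacam16 had no probe set naming it alone here. Oc90, the main otoconial matrix protein, was chosen after its values were seen and went the same way as Tectb, from 10.25, 10.04 and 9.78 to 7.40, 7.54 and 7.15.

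Genes of the lateral wall rose. Of 15 genes of fibrocytes in the spiral ligament and limbus 8 rose and none fell, with a median of 0.86 (0.80 in replicate 3, 1.03 in α9-/-). Coch, the cochlin of the ligament matrix (gene ID 12810, chromosome 12, 51593283 to 51606619), went from 10.79, 10.63 and 10.82 to 11.86, 12.91 and 13.57, a rise of 4.09-fold, or 2.03 ± 0.38. The P13 arrays were spread widely, with replicate 3 the highest, and all lay above P7. In α9-/- it rose by 2.65. Otos, a secreted protein of fibrocytes named otospiralin, rose from 12.79, 12.81 and 12.12 to 13.61, 13.53 and 13.87, after a mean of 9.67 at P3. Slc4a11, a borate and proton transporter of fibrocytes, rose by 1.57 ± 0.36 from 6.98, 7.47 and 7.26 to 8.37, 8.35 and 9.69. Replicate 3 was the highest here too, and α9-/- gave 3.12. The low 5′ array of P60 wild type differed from its group mates by -2.84 for Slc4a11, and that of P3 wild type by -1.33 for Coch. A second probe set of Slc4a11 gave 0.45.

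The ion transport genes of the stria and of the neighbouring outer sulcus moved singly. Of 18 genes 5 rose and 1 fell, with a median of 0.21 (0.17 in replicate 3, 0.53 in α9-/-). Slc26a4, which encodes pendrin, the anion exchanger that secretes bicarbonate into endolymph (chromosome 12, 31519814 to 31560055), rose from 7.35, 7.26 and 6.94 to 9.13, 9.27 and 9.08. The rise was 3.94-fold, the arrays of each age were close together, α9-/- rose by 2.31, and the P60 mean was 10.70. Kcnj16, an inward rectifier of the lateral wall, rose by 1.66 ± 0.20 and in α9-/- by 2.11. The potassium channel of marginal cells did not pass in either subunit, with differences of 0.14 ± 0.20 for Kcnq1 and 0.01 ± 0.22 for Kcne1, nor did Kcnj10 of intermediate cells with 0.50 ± 0.20. A p that misses the threshold does not show that these genes were level. Of 15 melanocyte genes 2 rose, a share of 13.3% that was near the 14.7% of all genes. Tyrp1 of pigment synthesis rose by 1.49 ± 0.28, against 0.33 in α9-/-.

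Gap junction and acid-base genes held some of the rises shared by both genotypes. Gjb6, the connexin 30 of supporting cells and fibrocytes, rose from 11.14, 10.83 and 10.86 to 11.96, 12.18 and 12.08, by 1.13 ± 0.17 and in α9-/- by 1.39. Its partner Gjb2, connexin 26, gave 0.50 ± 0.25 and did not pass. Of 10 connexins 2 rose and 1 fell, and of 11 aquaporins 2 rose and 1 fell, with a median of 0.22 that was -0.06 in replicate 3. Neither aquaporin that rose passed in α9-/- (limma adjusted p = 0.157 for Aqp4 and 0.0866 for Aqp9). Aqp4, a water channel of supporting cells and of brain glia, went from 7.10, 6.92 and 6.64 to 7.86, 9.82 and 9.87, with replicate 1 apart from the other P13 arrays. Of 16 acid-base genes 6 rose and 1 fell. Car2, a carbonic anhydrase of fibrocytes, red cells and osteoclasts, rose by 1.84 ± 0.17 and in α9-/- by 1.70, and the red cell genes Car1 and Slc4a1 rose by 2.78 ± 0.29 and 2.45 ± 0.26.

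**Figure D3:**
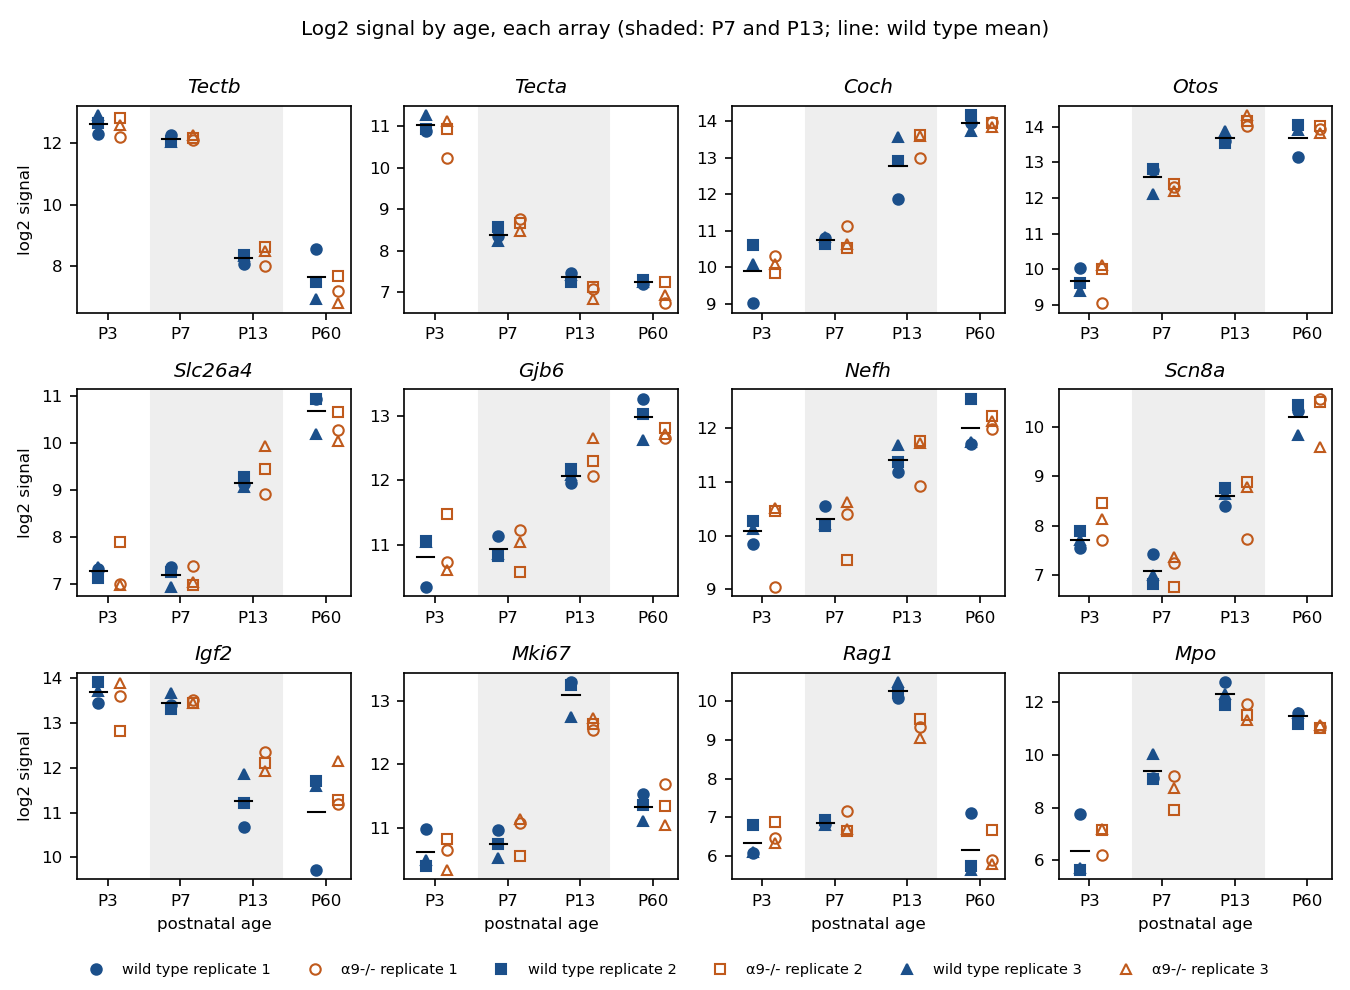
Log2 signal (y axis) of 12 genes against postnatal age (x axis), 1 point per array, with wild type filled, α9-/- open, the replicate number by shape and the wild type mean as a line. Between the shaded ages P7 and P13, Tectb falls from near 12 to near 8, Coch, Slc26a4 and Gjb6 rise toward their P60 levels, and Rag1 and Mki67 are higher at P13 than at any other age.

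Hair cell genes moved singly and in both directions. Of 11 genes listed for outer hair cell function 2 rose and 2 fell, and the falls were Tectb, which is made by other cells of the duct as well, and Lbh, a transcription cofactor (-2.85 ± 0.66, -0.97 in α9-/-). Of 23 hair bundle genes 1 rose and 3 fell, and of 12 hair cell transcription factors 3 rose and 2 fell. Among all genes 14.7% rose and 8.47% fell. These 3 lists are short, and whether their counts differed from those shares was not tested. The counts are therefore not read as a pattern particular to hair cells. The medians of these 3 lists were 0.13, 0.07 and 0.39 (0.12, 0.06 and 0.16 in replicate 3), and -0.16, 0.01 and -0.10 in α9-/-. Kcnn2, the SK2 channel that carries the efferent inhibition of hair cells, rose from 5.95, 5.88 and 5.91 to 7.51, 7.88 and 7.5, by 1.71 ± 0.18, and in α9-/- by 1.36. Eps8, an actin regulator at the tips of stereocilia, rose by 1.45 ± 0.23 (1.65 in replicate 3, 0.57 in α9-/-). Tmie, a subunit of the mechanotransduction complex, fell by 1.16 ± 0.16, from 9.28, 9.23 and 9.16 to 7.91, 8.10 and 8.17. Pou4f3 fell by 1.44 ± 0.21, but its difference in α9-/- was -0.02, and the low 5′ arrays of P3 and P60 wild type differed from their group mates by -1.21 and -2.18. Other genes of hair cell function gave smaller differences, of 0.31 ± 0.22 for Slc26a5, 0.13 ± 0.20 for Chrna9, 0.39 ± 0.19 for Tmc1, 0.36 ± 0.24 for Tmc2 and -0.12 ± 0.24 for Otof, the calcium sensor of the ribbon synapse. None of the 5 passed, and the signals of all but Otof stayed under 6 in the 6 arrays. Atoh1, which specifies hair cells, gave 0.36 ± 0.25. Ocm, Slc17a8 and Chrna10 had no probe set naming them alone here.

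Neuronal and synaptic genes rose more often than they fell, as did all genes, of which 14.7% rose and 8.47% fell. Of 20 spiral ganglion and neurofilament genes 5 rose and none fell, with a median of 0.46 (0.58 in replicate 3, 0.48 in α9-/-). Nefh, the heavy neurofilament chain, rose from 10.56, 10.18 and 10.22 to 11.18, 11.36 and 11.69. Nefl rose by 1.13 ± 0.21, Map2 of dendrites by 1.31 ± 0.21 (its other probe sets gave -0.35 to -0.01), and Snap25 of the fusion machinery by 1.43 ± 0.24. Of 11 sodium channel genes 3 rose, among them Scn8a, the Nav1.6 of nodes of Ranvier, from 7.43, 6.82 and 7.00 to 8.40, 8.76 and 8.64, and its auxiliary subunit Scn4b by 1.64 ± 0.24. Of 20 potassium channel genes 8 rose and 2 fell (median 0.38, 0.44 in replicate 3, 0.28 in α9-/-). Kcna2 of the axon beside the node rose by 1.35 ± 0.23 and by 1.54 in α9-/-, and Kcna1 by 0.77 ± 0.21. Other probe sets of Kcna1 gave -1.38 to -0.20, so probe sets of that gene disagreed.

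Of 34 synaptic vesicle genes 10 rose and 1 fell (median 0.34, 0.62 in replicate 3, 0.45 in α9-/-), and of 14 ribbon synapse genes 5 rose. Slc17a6, the vesicular glutamate transporter of many afferent neurons, went from 7.99, 7.94 and 8.14 to 9.54, 9.73 and 9.64, while a second probe set gave -0.63. Pclo, a scaffold of the active zone, rose by 1.89 ± 0.31 and Rims2 by 1.49 ± 0.30. Averaging all probe sets of a gene left 3 rises among the synaptic vesicle genes and 3 among the potassium channels. Of 19 glutamate receptor genes 3 rose and 1 fell, and of 17 nicotinic subunits 2 rose. Their shares of rises, 15.8% and 11.8%, were near the 14.7% of all genes. Of 16 genes of GABA receptors and synthesis 3 rose, or 18.8%, which is also near that share (median 0.72, 1.24 in replicate 3, 0.38 in α9-/-). Gad1, the enzyme that makes GABA, led with a rise from 5.61, 4.68 and 5.18 to 7.03, 8.65 and 8.13. It gave 0.88 in α9-/- with an adjusted p of 0.276, and a second probe set gave 0.02 in wild type. Calcium buffers and pumps gave 7 rises and 2 falls of 18, with a median of 0.82 (0.95 in replicate 3, -0.04 in α9-/-). Gene by gene, the wild type change minus the α9-/- change had a median of 0.02, and 3 of these genes passed as rises in α9-/-. The list medians thus overstate the gap between the genotypes. Pvalb, a calcium buffer of fast neurons and muscle, rose by 0.92 ± 0.23. Of 11 genes of neurotrophins and their receptors 3 rose, with Bdnf at 0.88 ± 0.20 against 0.08 in α9-/- and Ret, the receptor of the GDNF family, at 1.6 ± 0.25, where a second probe set gave 0.03.

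Cerebellar fragments and the auditory nerve were removed at dissection according to the methods. Cerebellar markers still rose, with their summed signal highest in P13 replicates 2 and 3, while the neuronal genes above rose in replicate 1 too. Of 17 cerebellar and hindbrain markers 8 rose and none fell, with a median of 1.01 (0.96 in replicate 3, 0.21 in α9-/-). Their summed linear signal ran from 3338 to 3925 signal units at P7 and was 4310, 11260 and 7977 in P13 replicates 1 to 3, against 3636 to 5364 in α9-/- at P13. Gabra6, a receptor subunit of cerebellar granule cells, was 3.85, 3.93 and 3.81 at P7 and 3.43, 9.14 and 8.64 at P13. P13 replicate 1 was thus at the P7 level for this marker, and replicates 2 and 3 were far above it. Pcp2 of Purkinje cells split the same way, with 6.20, 9.57 and 8.72 at P13. Central nervous system glia gave 4 rises and 2 falls of 13, with Mobp of central myelin at 6.59, 8.97 and 9.52 at P13 against 5.88 to 6.70 at P7. Gad1, Aqp4, Pclo, Syt4, Nefh and Scn8a were likewise lowest in replicate 1 among the P13 arrays, and in replicate 1 each was still above all P7 arrays. Not all neuronal rises split so. Kcnc2 (8.33, 7.93 and 7.9 in P13 replicates 1 to 3) and Gria3 (8.81, 8.17 and 8.19) were highest in replicate 1, and Nefl was lowest in replicate 2, at 12.28. The part of cerebellar RNA in the neuronal rises was not tested. Of 19 genes of myelin and Schwann cells 2 rose and 1 fell, or 10.5% and 5.26%, against 14.7% and 8.47% of all genes. Mbp gave 0.16 ± 0.18 without passing.

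Skeletal muscle genes stood apart by array and by genotype. Of 27 genes 5 rose and 1 fell, with a median of 0.56, but 1.75 in replicate 3 and -0.80 in α9-/-. Their summed signal was 7509 to 12970 signal units at P7 and 22300, 7565 and 32080 in P13 replicates 1 to 3, so replicate 2 lay within the P7 range. Myh4, an adult fast myosin, was 3.89, 3.34 and 4.98 at P7 and 8.88, 4.74 and 9.08 at P13, with -0.38 at a second probe set. Without replicate 3, 1 gene of the list passed as a rise. The perinatal myosin Myh8 fell from 7.28, 7.21 and 7.66 to 5.77, 4.35 and 5.12, and by 3.98 in α9-/-, so that it was lower also in the arrays of high muscle signal. Myh3, the embryonic myosin, gave -0.72 ± 0.41 without passing. Of 18 keratinocyte genes 1 rose.

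Growth genes of the perinatal period fell. Of 20 imprinted growth genes 9 fell and none rose, with a median of -0.62 (-0.46 in replicate 3, -0.32 in α9-/-). Igf2, insulin-like growth factor 2, fell from 13.39, 13.30 and 13.66 to 10.68, 11.22 and 11.87, by 2.19 ± 0.29, and by 1.34 in α9-/-. Cdkn1c, an inhibitor of the cell cycle, fell by 2.34 ± 0.21, Dlk1, a Notch family ligand of precursor cells, by 2.3 ± 0.33, and Mest by 2.11 ± 0.21. All 3 also passed in α9-/-, at -1.41, -2.44 and -1.54. Of 18 genes of the IGF pathway 5 fell and 2 rose, and Igfbp2, a carrier of these factors, fell by 2.20 ± 0.36. H19 had no probe set naming it alone here.

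Thyroid hormone is needed for the onset of hearing, and the genes around it changed in both directions. Of 15 genes 4 rose and 5 fell. Crym, a cytosolic binding protein of the hormone, fell from 8.74, 8.54 and 8.76 to 6.22, 6.39 and 6.20, by 2.41 ± 0.17 with an adjusted p of 0.000158, and by 2.87 in α9-/-. Its P3 mean was 11.31 and its P60 mean 6.39. Dio2, the deiodinase that makes active hormone in the cochlea, fell by 1.00 ± 0.21, from 11.41, 11.18 and 10.90 to 10.07, 10.48 and 9.95, and all 3 of its probe sets were lower. Slco1c1, a thyroxine transporter, rose by 1.47 ± 0.24. The receptor Thra fell by 1.12 ± 0.20, and Thrb, the receptor isoform gene of the hearing organ, gave -0.53 ± 0.20 without passing. Dio3 had no probe set naming it alone here.

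Guidance and vessel genes held more falls than rises. Of 44 axon guidance genes 13 fell and 3 rose, with a median of -0.15 against 0.10 over all genes (-0.28 in replicate 3, -0.23 in α9-/-), and with replicate 3 as the only P13 array none passed. Robo2, a Slit receptor, fell by 1.67 ± 0.43 (-1.21 in α9-/-), Plxnd1, a semaphorin receptor, by 1.62 ± 0.29, and Sema5a by 2.06 ± 0.26, the last with 0.14 in α9-/-. Of 21 endothelial and pericyte genes 8 fell and 2 rose (median -0.65, -0.34 in replicate 3, -0.30 in α9-/-). Plvap, a protein of fenestrated endothelium, fell by 1.65 ± 0.23, while Vwf, the clotting factor of mature endothelium, rose by 2.02 ± 0.28 and by 1.83 in α9-/-. The low 5′ array of P60 wild type had a median of -0.83 over this list. Of 47 Wnt genes 4 fell and 2 rose, of 22 supporting cell and Notch genes 1 fell and 3 rose, and of 24 immediate early genes 3 fell and 2 rose. The shares of falls in these lists were 8.51%, 4.55% and 12.5%, against 8.47% of all genes. The shares of rises were 4.26%, 13.6% and 8.33%, against 14.7% of all genes. Of 20 genes of cholesterol synthesis 6 fell and 1 rose, where Fdps fell by 1.96 ± 0.57 but differed by -0.43 in replicate 3 and by 0.04 at a second probe set. Housekeeping lists moved little, with 3 rises and 2 falls of 56 respiratory chain genes (median 0.05) and 2 falls of 41 ribosomal protein genes (median -0.09).

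**Figure D4:**
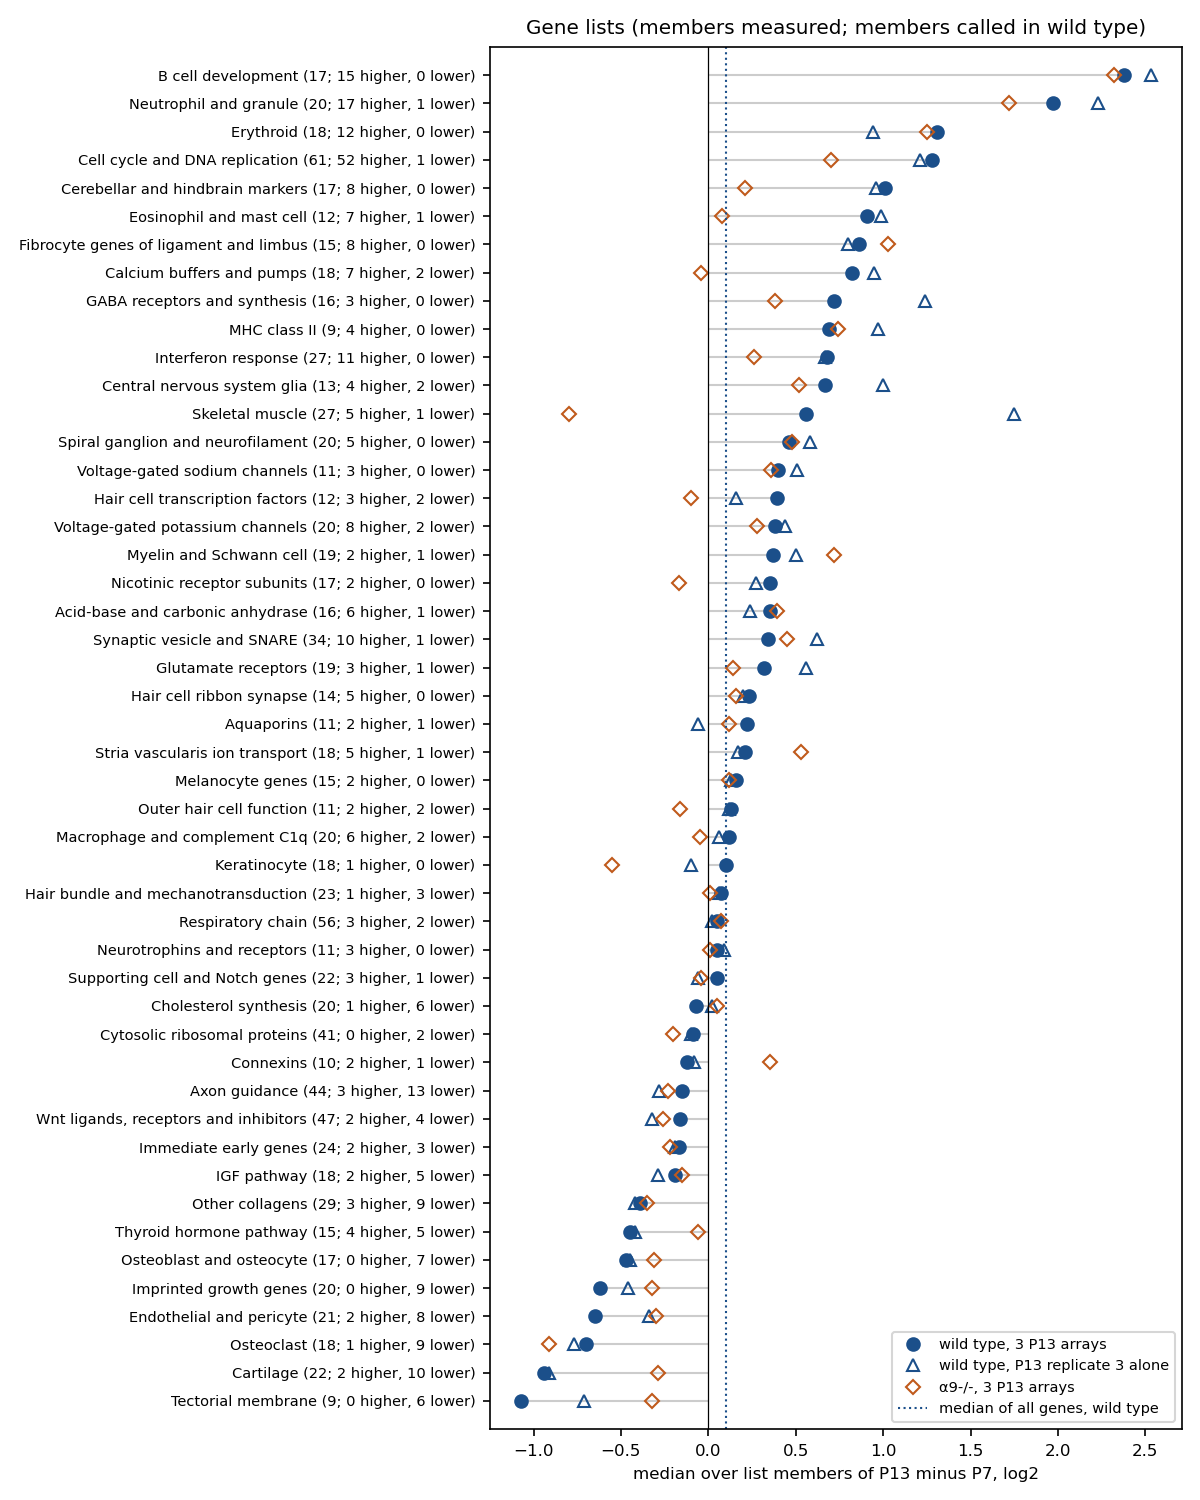
Median log2 difference between P13 and P7 (x axis) over the measured members of each list (y axis), with filled circles for the 3 wild type P13 arrays, triangles for replicate 3 alone and diamonds for α9-/-. B cell, neutrophil and erythroid genes stand at the top with medians from 1.31 to 2.38 in wild type, tectorial membrane and cartilage genes at the bottom with -1.07 and -0.94, and the skeletal muscle list is spread from -0.80 in α9-/- to 1.75 in replicate 3.

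Across the genes named by the rule, P13 replicate 3 lay above all P7 arrays for all 135 that rose and below them for all 84 that fell, though it took part in those calls. The α9-/- difference had the same sign for 126 and 80 of them, and 63 and 16 also passed there. The low 5′ arrays of the other ages moved the same way as many of these genes. The furthest of their 3 differences from group mates was -5.26 for Col10a1, -3.29 for Fdps, -2.61 for Pth1r, -2.55 for Matn1, -2.2 for Igfbp2, -2.0 for Alpl, -1.94 for Igf2 and -1.83 for Robo2 among genes that fell. It lay between -1.69 and -1.06 for Mest, Sema5a, Myh8, Plxnd1, Dlk1, Plvap, Snorc and Ccnd1. Among genes that rose it was 4.21 for Myh4, 2.09 for Mpo, 1.91 for Ucma, 1.69 for Ret, 1.65 for H2-Aa and 1.56 for Bdnf. In P3 wild type the low 5′ array differed by a median of 1.18 over the neutrophil list, 0.86 over the erythroid list, 0.51 over the B cell list and 0.33 over the division list, against 0.21 over all genes. The part of RNA quality in these changes was not tested.

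The α9-/- arrays share no array with the wild type comparison. They are of another genotype and were normalized together with the wild type arrays, so they do not repeat its measurement. There 793 genes rose, or 4.36% of all genes, and 531 fell, or 2.92%. Of the 2676 wild type rises 690 also passed as rises in α9-/-, which is 25.8% of the wild type list and 87.0% of the α9-/- list. Of the 1541 falls 285 did, or 18.5% and 53.7%. The α9-/- difference had the same sign for 91.2% of the wild type rises, where 41.8% of all genes were positive, and for 93.4% of the falls, where 58.2% were negative. The sizes were smaller, with medians of 0.51 and -0.54 in α9-/-, but these genes were chosen by their wild type values, which favours larger sizes in wild type.

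The change itself was compared between the genotypes by an interaction over 12 arrays. It passed above 0 for 1 gene and below 0 for 1, each 0.0055% of all genes, while 2026 and 748 genes had an unadjusted p under 0.05. P2ry10, a receptor of lymphoid cells, rose by 3.07 in wild type, from 3.53, 3.38 and 3.36 to 6.47, 6.61 and 6.40, and by 0.99 in α9-/- (adjusted p = 0.0156). Dapk3 fell by 3.85 in wild type and differed by -0.65 in α9-/- (adjusted p = 0.019), and its values in the low 5′ arrays are given above. The counts rested on P13 wild type replicate 3, since 189 and 224 genes passed without it. All other differences between the genotypes in the text are values set side by side that did not pass this test.

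**Figure D5:**
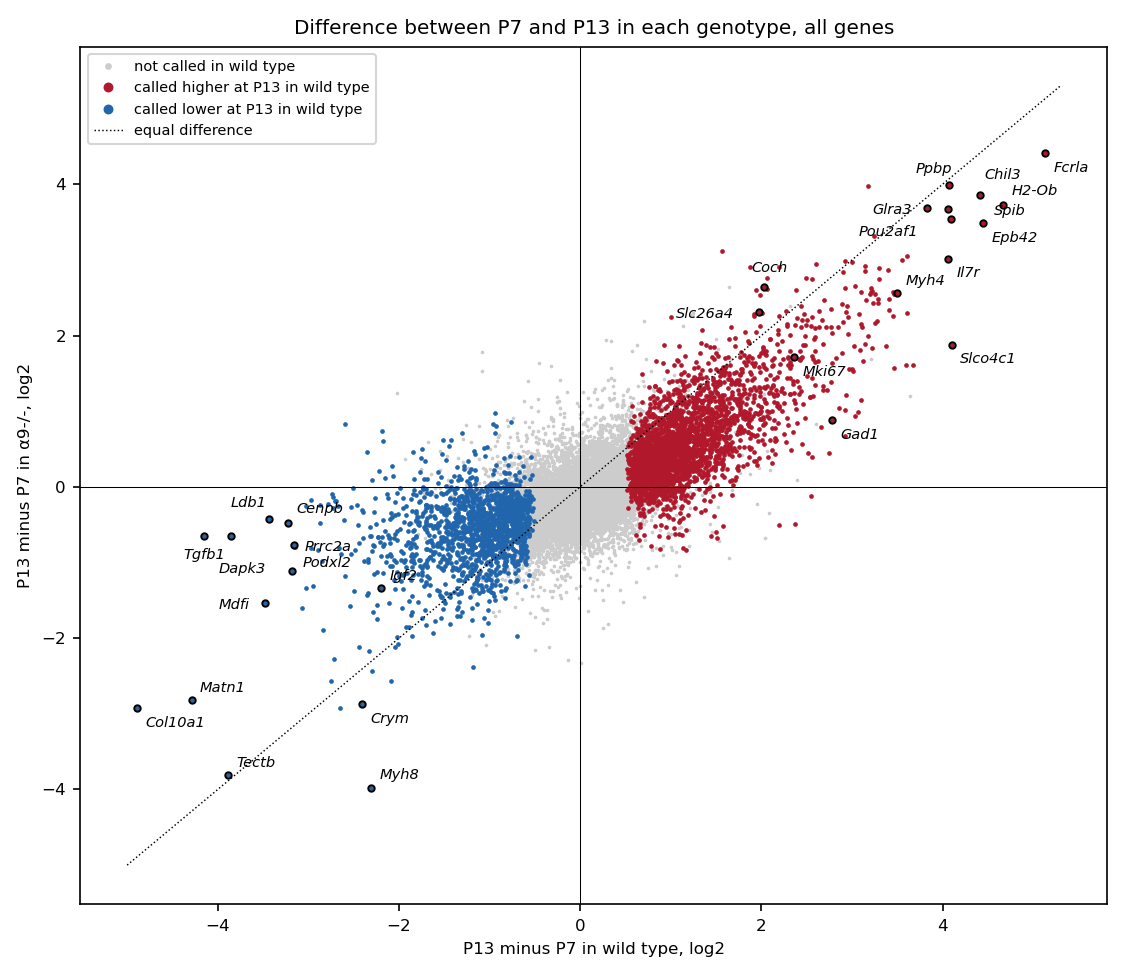
P13 minus P7 in α9-/- (y axis) against the same difference in wild type (x axis), both on the log2 scale, 1 point per gene. Red and blue points rose and fell in wild type, and the dotted line marks equal differences. Tectb lies on the line at -3.88 and -3.81, B cell and myeloid genes lie a little below it at the right, and Tgfb1, Dapk3, Ldb1 and Cenpb lie at -0.65 to -0.43 in α9-/-.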

How the data were processed

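Cochlear RNA from wild type P7 and P13 mice was hybridized to Affymetrix mouse arrays. The deposited values are log2 signals, made by the authors with RMA background correction, quantile normalization and a Tukey biweight summary, per the methods and the submitters' processing notes, which also name limma. Of 45101 probe sets, 34958 name 1 gene. The deposited values were quantile-normalized again over the 24 arrays, and the probe set with the highest mean stood for each of 18194 genes. P13 was set against P7 by limma 3.58.1 (R 4.3.3) on the 6 arrays, with Benjamini-Hochberg adjustment over all genes. The α9-/- change was fitted likewise, and the interaction over 12 arrays. A gene was called at an adjusted p under 0.05 with no fold limit.

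Groups follow the sample titles. Named genes are the 10 largest called changes per direction (no overlap between ages, P13 replicate 3 beyond all P7 arrays), up to 4 called members per list and direction, and a fixed set of hearing genes. Elane, P2ry10 and Oc90, and the comparisons with low 5′ arrays and second probe sets, were added after values were seen. The comparison, the 48 lists (958 of 1086 genes measured) and the motifs were chosen with earlier results of these data known. Alternatives covered normalization, filters, probe sets, weights, blocks and left-out arrays. The fits were tested on simulated data. Figures and exact tests came from Python 3.11.15, in matplotlib 3.10.9 and scipy 1.17.1.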

Additional observations from a re-analysis of the deposited data

Results flagged for a closer look

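The change from P7 to P13 differed between the genotypes for P2ry10, where wild type minus α9-/- change was 2.08 ± 0.23 (SE), with 3.07 in wild type and 0.99 in α9-/- and higher values in 3 of 3 wild type P13 arrays than in any α9-/- array. It differed also for Dapk3, with -3.20, from -3.85 in wild type and -0.65 in α9-/-. In arrays of low Gapdh 5′ signal at P3 and P60, Dapk3 differed from its group mates by -3.83 to -3.15 and P2ry10 by -0.19 to 0.93.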

How the results depend on the processing

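The counts of 2676 rises and 1541 falls stayed within 1.5 times under all 24 arrays in the fit, centred arrays, a variance filter and a filter on mean signal. They did so too under averaged probe sets, the trended prior, the poly-A settings and a replicate block (2698 and 1701). Averaged probe sets gave 1951 rises and 1731 falls. Larger moves came from the deposited values (5150 and 869), array weights (4716 and 3094), P13 replicate 3 alone (482 and 85) and a log2 difference above 1.5 (600 and 338). Leaving out 1 array gave 1399 to 2685 rises and 618 to 1610 falls. For the interaction, genes above 0 numbered 3 with the deposited values, 6 with centred arrays, 0 among genes above the median level, 1491 with array weights, 13 with the replicate block, 4 on arrays without poly-A controls, 0 with replicate 3 alone and 0 to 189 with 1 array left out. Genes below 0 numbered 0 with all 24 arrays, 3 with centred arrays, 0 among genes above the median level, 0 with averaged probe sets, 694 with weights, 11 with the block, 0 with replicate 3 alone and 0 to 224 with 1 array left out. The causes were not tested. Correlations of the deviations of same-numbered arrays were -0.007, 0.129 and 0.282, not all over 0.1, so the replicate block is not read as pairing. Averaged over probe sets, 8 called genes changed sign, namely Rfx7 (-0.398), Scn1a (-0.031), Klf9 (-0.42), Pappa (-0.015), Gfra1 (-0.686), Napb (-0.176), Col8a1 (-0.28) and Kcna1 (-0.441). Of 219 named genes called, 165 kept direction and call under averaged probe sets and 48 with replicate 3 alone.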
